A study of Homo sapiens with 71 samples.

Results

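CROH is the code of 1 of 16 surface water sites whose water was given to HepG2 cells, and the genes whose levels differed between CROH water and purified water are described here. HepG2 is a human hepatoma line that keeps many functions of hepatocytes. The cells of all dishes were harvested together, precultured for 72 hours and then held for 48 hours in medium made of a concentrated stock and 75% water. The water was filtered CROH water in 4 dishes (CROH 1 to 4), filtered water of the other 15 sites in 59 dishes, and purified water in 8 dishes (controls 1 to 8), which makes 71 libraries. The stock medium with its serum and antibiotics was the same for all of them. The dishes are the replicates, and p-values measure the spread between dishes of 1 cell batch. CROH is used as a name, with no property of the water read into it. The growth protocol describes 16 control dishes, of which 8 have libraries here.

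RNA was measured with TempO-Seq, in which probe pairs are joined where both bind side by side on a transcript and are then counted by sequencing, so that each feature is a targeted stretch of a gene. Values are CPM, counts scaled to a common library total. They compare 1 gene between dishes, not different genes with each other. All measured genes were members: of 31012 features in the table held, 12425 had counts and 6947 had enough of them to be tested. The table ends before RAI14 in alphabetical order, and later symbols were not analysed. A gene is called where edgeR's quasi-likelihood test gave a Benjamini-Hochberg adjusted p under 0.05 over all 6947 features.

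Hepatocytes detoxify foreign compounds through nuclear and ligand-bound receptors that switch on cytochrome P450 genes, bind metals with metallothioneins, and answer oxidants through NRF2. WNT signalling through beta-catenin sets the programme of hepatocytes around the central vein of the liver lobule, with glutamine synthetase as its classic target. HepG2 cells carry an activated form of beta-catenin, so this pathway is active in them without added ligand.

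Total counts, given in M for 1e6, lay between 4.90 and 7.37 M in the CROH libraries and between 8.18 and 14.5 M in the control libraries, over the part of the table held. Depth therefore differed between the groups without overlap. Counts of the 12 libraries thinned to 4.90 M each gave 117 called genes, 109 of them among the 149 called with all counts. Of the other sites, VROH 2, CRMI 1 and SRMI 3 stood apart from their groups and widened the spread that the test shares between all groups. VROH 2 held only 8872 counts in all, so its values are those of a nearly empty library. In it 2362 of the 2795 features compared lay more than 3 log2 units below its group. It was kept in the main fit. The standard deviation of log2 deviations from the own group over 2795 features was 3.05 in VROH 2, 1.89 in CRMI 1 and 1.19 in SRMI 3. It was 0.205 to 0.459 in CROH and 0.144 to 0.345 in the controls. In the 56 other libraries of the other sites it reached 1.07, at VROH 3, whose group holds VROH 2, and 0.818 at GRNY 4. SRMI 3 thus stood less clearly apart than VROH 2 and CRMI 1. Counts of called genes are also given without VROH 2, CRMI 1 and SRMI 3. The 12 markers of HepG2 cells and hepatocytes summed to 182905 to 223323 CPM in CROH and 159474 to 220949 CPM in the controls. Summed immune markers lay at 2683 to 2993 CPM in CROH and at 1695 to 2288 CPM in the controls. LYZ, the lysozyme gene, made up most of that sum, and of the 12 markers PTPRC, CD163 and MARCO were at 0 in all 12 libraries. Markers of fibroblasts (43.7 to 65.6 CPM in CROH, 38.9 to 63.4 CPM in the controls), endothelium (9.28 to 11.5 and 10.1 to 14.8 CPM) and bile duct and squamous epithelium (2287 to 3141 and 2465 to 3541 CPM) overlapped between the groups. The part of these levels in the results was not tested.

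Of the 6947 features, 149 were called between CROH and the controls, which is 2.14% of those tested. Levels were higher in CROH for 58 genes (0.835%) and lower for 91 (1.31%). Most changes were below 2-fold: 8 genes were at least 2-fold higher and 28 at least 2-fold lower. The median log2 change was 0.77 among the genes called higher, -0.82 among those called lower and 0.01 over all features. Every CROH library lay above every control library for 48 of the 58 genes called higher, and below every one for 81 of the 91 called lower. Over all features, 8.45% did not overlap, with 3.71% above and 4.74% below. Of the called genes, 27 averaged under 5 CPM in the group where they were higher. Since whole dishes were measured, fewer cells with a transcript and less of it per cell cannot be told apart.

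Without VROH 2, CRMI 1 and SRMI 3, 709 of 6916 features were called (10.3%), 299 higher (4.32%) and 410 lower (5.93%), and all 149 remained among them. With 1 library left out, the count of 149 fell to 98 without CROH 1, 44 without CROH 2, 46 without CROH 3, 42 without CROH 4, 99 without control 2 and 95 without control 5. It lay between 103 and 150 without any other control. Of the 149 genes, 23 were called whichever of the 12 libraries was left out. When VROH 2, CRMI 1 and SRMI 3 were left out as well, 114 were.

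**Figure D1:**
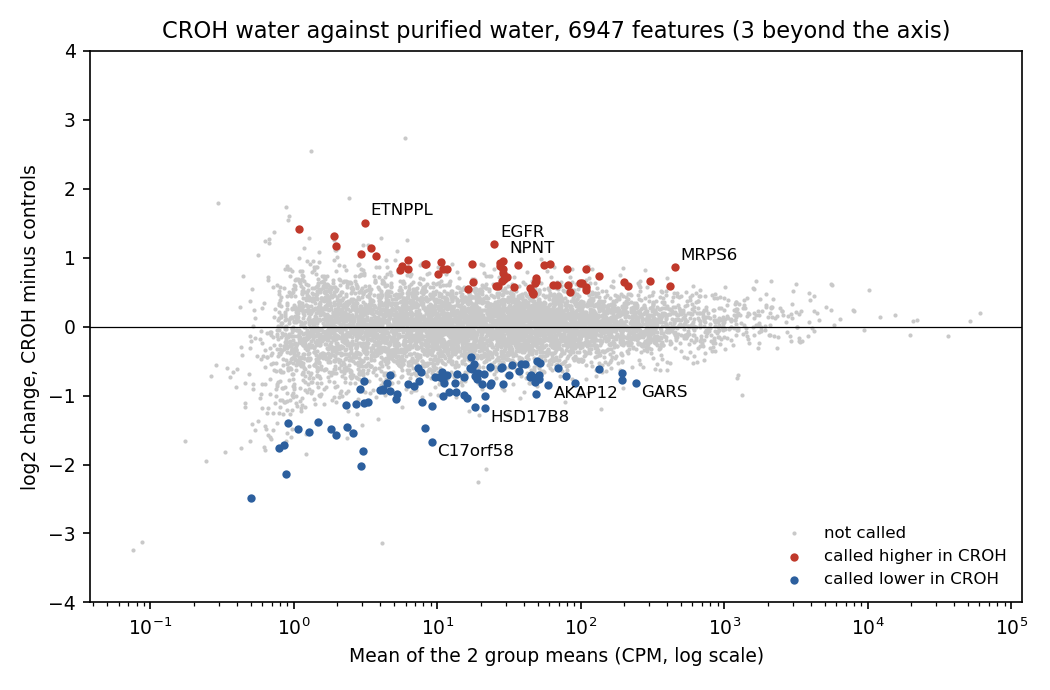
Each point is a feature, with the mean of its CROH and control means (CPM, log scale) on the horizontal axis and its log2 change, CROH minus controls, on the vertical axis. The 58 genes called higher (red) and 91 called lower (blue) lie on both sides of the axis, and changes past 1 on the log2 scale are more frequent below it (28 genes) than above it (8 genes).

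Targets of WNT and beta-catenin were among the genes called higher. Of 11 tested members of the list of WNT and beta-catenin targets, 3 were called higher and none lower, against 0.835% higher over all features, and the list's median log2 change was 0.34. AXIN2 (chr17:65528563-65561647, minus strand) encodes the scaffold of the complex that destroys beta-catenin and is itself induced by beta-catenin. It had 81.1, 103, 116 and 94 CPM in the 4 CROH dishes, against a lowest, median and highest of 55.7, 65.3 and 72 CPM in the 8 control dishes. All CROH values were above all control values, and the log2 change was 0.60 ± 0.13 (SE, adjusted p = 0.00561). GLUL (chr1:182381704-182392206, minus strand), glutamine synthetase, had 235, 278, 214 and 248 CPM in CROH and 128, 155 and 174 CPM as lowest, median and highest in the controls. Its change was 0.64 ± 0.17 (adjusted p = 0.031), again with no overlap. APCDD1, a membrane protein that blocks WNT signals, had 3.18, 2.01, 1.98 and 3.67 CPM in CROH and 0.469, 0.989 and 1.74 CPM in the controls, and rose by 1.31 ± 0.32 on the log2 scale (adjusted p = 0.0172).

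FRAT2, which binds the kinase GSK3 and so favours beta-catenin, is not in that list and was among the 12 largest rises. It had 31.3, 28.5, 45.1 and 37.5 CPM in CROH, against 17.7, 18.7 and 20.5 CPM as lowest, median and highest in the controls. The controls were close to one another and the CROH dishes varied more, all above them, and the log2 change was 0.92 ± 0.18 (edgeR, adjusted p = 0.00242). NOTUM, a secreted enzyme that inactivates WNT ligands, was the fourth member called once VROH 2, CRMI 1 and SRMI 3 were left out. In that fit 4.32% of all features were called higher. MYC, LEF1, BMP4, CYP2E1, DKK1, LGR5 and NKD1 were not called in either fit. AXIN2 overlaps another annotated gene, and which of both its probe reads cannot be told without probe positions (not given in the sources used here), so its counts are uncertain in this respect, as are those of NPNT, GPR146, ARG1, OSGIN1, MRPS6, B9D1, PRPF38A, CHML and HIRA below. Leaving out 1 library ended the calls of AXIN2 (CROH 3, adjusted p 0.0601), GLUL (CROH 1, 2, 3 or 4 or control 2 or 5, adjusted p up to 0.134) and APCDD1 (CROH 1 or 4, adjusted p up to 0.112). FRAT2 was called without any 1 of the 12 libraries (adjusted p at most 0.041).

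The start regions of these genes are shown because AXIN2, GLUL, APCDD1 and FRAT2 were all called higher. RefSeq windows of 250 bases before the transcript start on GRCh38.p14 were held for APCDD1 (chr18:10454385-10454634, plus strand), FRAT2 (chr10:97334730-97334979, minus strand) and GLUL, with no entry for AXIN2. GLUL has 2 starts, at chr1:182391791-182392040 and chr1:182391342-182391591, both on the minus strand. Capitals mark GC boxes (GGGCGG or, on the other strand, CCGCCC), the letters that factors of the SP family bind.
APCDD1: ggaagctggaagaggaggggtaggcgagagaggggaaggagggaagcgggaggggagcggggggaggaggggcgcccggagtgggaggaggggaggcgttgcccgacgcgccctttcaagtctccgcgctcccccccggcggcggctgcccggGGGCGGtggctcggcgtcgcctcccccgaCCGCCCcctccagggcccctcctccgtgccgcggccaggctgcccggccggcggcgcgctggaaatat
FRAT2: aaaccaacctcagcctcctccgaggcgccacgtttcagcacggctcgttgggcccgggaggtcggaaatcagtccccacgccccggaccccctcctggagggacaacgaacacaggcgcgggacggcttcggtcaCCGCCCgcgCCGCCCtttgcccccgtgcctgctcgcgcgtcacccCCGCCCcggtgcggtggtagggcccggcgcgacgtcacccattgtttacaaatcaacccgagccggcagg
GLUL, first start: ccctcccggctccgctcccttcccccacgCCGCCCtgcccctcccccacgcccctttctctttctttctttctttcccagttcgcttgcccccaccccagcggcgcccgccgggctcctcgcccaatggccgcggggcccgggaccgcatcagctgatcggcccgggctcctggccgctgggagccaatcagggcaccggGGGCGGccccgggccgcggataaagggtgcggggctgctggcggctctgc
GLUL, second start: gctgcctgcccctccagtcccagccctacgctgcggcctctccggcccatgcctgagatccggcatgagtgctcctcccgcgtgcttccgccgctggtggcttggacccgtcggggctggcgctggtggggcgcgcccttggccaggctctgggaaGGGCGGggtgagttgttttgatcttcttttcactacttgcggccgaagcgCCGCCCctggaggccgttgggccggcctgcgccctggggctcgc
The core letters bound by TCF and LEF factors, the DNA-binding partners of beta-catenin, were searched on both strands in 4 spellings: CTTTGAA was the first, CTTTGAT another, CTTTGTA the third and CTTTGTT the last. None of the 4 windows held them, while 12% of 35116 human windows of the same length did. GC boxes stood in all 4 windows, at 2 or 3 per window, and in 42.6% of all windows. A match, or its absence in so short a window, describes these letters and not the binding of a factor.

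NPNT (chr4:105894775-106004027, plus strand), nephronectin, an extracellular matrix ligand of integrins, had the smallest p-value of the genes named here. It had 35.4, 45.2, 31.8 and 39.7 CPM in CROH and 15.6, 18.7 and 28.7 CPM as lowest, median and highest in the controls, a log2 change of 0.95 ± 0.15 (adjusted p = 0.000117). The highest control library was still below the lowest CROH library. In the list of matrix genes and integrins, NPNT was the only 1 of 33 tested members called with all libraries, against 0.835% called higher over all features. The list's median of 0.01 equalled that of all features. HS3ST3A1 (chr17:13495689-13601927, minus strand), which adds sulfate groups to heparan sulfate chains, had 67.3, 79, 87.4 and 83 CPM in CROH against 36.9, 42.7 and 49.1 CPM in the controls. It rose by 0.91 ± 0.16 on the log2 scale (adjusted p = 0.00125), without overlap.

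EGFR (chr7:55019021-55211628, plus strand), the receptor of epidermal growth factor, showed the largest rise of the genes without overlap and with a mean of at least 5 CPM. It had 27.7, 30.3, 45.4 and 35.6 CPM in CROH and 9.17, 15 and 20.8 CPM in the controls, with a log2 change of 1.2 ± 0.33 (edgeR, adjusted p = 0.0358). CROH 3 was the highest of the 12 libraries. HBEGF, a membrane-bound ligand of EGFR, had 48.3, 57.2, 55.6 and 49 CPM in CROH and 23.6, 36.1 and 42.2 CPM in the controls, a change of 0.55 ± 0.15 (adjusted p = 0.0358). EGFR and HBEGF were the 2 of 5 tested members called in the list of EGF ligands and ERBB receptors, against 0.835% higher over all features. The list's median was 0.38. NR4A1, an orphan nuclear receptor that growth factor signals induce within the first hours, had 5.81, 3.29, 5.52 and 4.31 CPM in CROH and 0.978, 1.86 and 3.93 CPM in the controls. Its groups overlapped, since the highest control was above CROH 2, and its change was 1.14 ± 0.30 (adjusted p = 0.0292). It was the only 1 of 21 tested immediate early and ERK response genes called, with a list median of 0.37. Without VROH 2, CRMI 1 and SRMI 3, 6 of the 21 were called higher and none lower, against 4.32% higher over all features in that fit: JUN, JUNB and JUND, subunits of the AP-1 transcription factor, with KLF6, NR4A1 and PIM1.

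NRN1, neuritin, a protein anchored to the outer membrane and best known from neurons, had 11.1, 11, 11.3 and 10.1 CPM in CROH and 4.51, 5.62 and 8.57 CPM in the controls. The 4 CROH dishes lay close together, above every control, and the log2 change was 0.91 ± 0.17 (edgeR, adjusted p = 0.0013). NRP2, a co-receptor of semaphorins and vascular growth factors, had 12.4, 14.6, 10.04 and 18.6 CPM in CROH and 5.08, 7.19 and 9.66 CPM in the controls (0.94 ± 0.23, adjusted p = 0.0171). FFAR2, a receptor of short-chain fatty acids, had 7.68, 5.12, 12.2 and 7.98 CPM in CROH and 2.32, 4.45 and 5.07 CPM in the controls (0.96 ± 0.24, adjusted p = 0.0171). Its lowest CROH library was only just above its highest control library. GPR146, an orphan receptor linked to cholesterol levels in mice and humans, had 54.3, 64.7, 99.4 and 68.2 CPM in CROH and 28.7, 38.1 and 51 CPM in the controls (0.90 ± 0.23, adjusted p = 0.0227).

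Calls of the genes in the last 3 paragraphs ended without 1 library for EGFR (CROH 2, 3 or 4 or control 2, 3, 4, 5, 7 or 8, adjusted p up to 0.21), HBEGF (CROH 1, 2, 3 or 4 or control 2, 3, 5 or 6, adjusted p up to 0.15), NR4A1 (CROH 1, 3 or 4 or control 2, 3 or 5, adjusted p up to 0.152), NRP2 (CROH 2 or 4, adjusted p up to 0.129), FFAR2 (CROH 3 or 4, adjusted p up to 0.252) and GPR146 (CROH 2, 3 or 4, adjusted p up to 0.226). NPNT, HS3ST3A1 and NRN1 were called whichever library was left out, with edgeR's adjusted p of 0.00743, 0.00859 and 0.0126 at most.

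**Figure D2:**
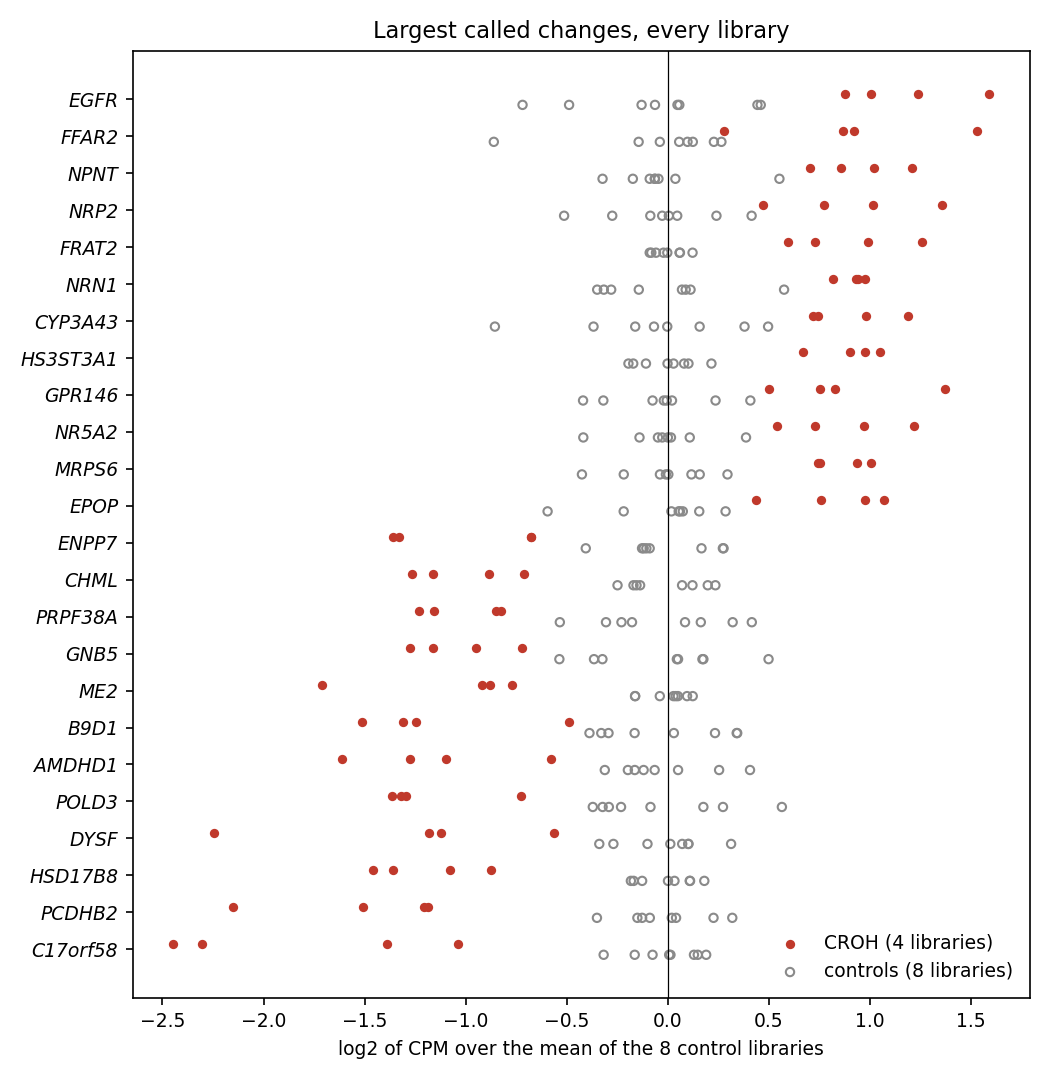
Each row is 1 gene of the 12 largest rises and 12 largest falls without overlap, and each point a library, as log2 of its CPM over the mean of the 8 control libraries. Red points (CROH) and open points (controls) do not overlap in any row. The CROH points lie widest apart in DYSF, C17orf58 and FFAR2 and closest together in NRN1 and MRPS6.

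Of the regulators of liver genes, NR5A2 and FOXA3 rose. NR5A2 (chr1:200027602-200177424, plus strand), the nuclear receptor LRH-1 that drives bile acid and cholesterol genes, had 42.5, 50.3, 59.7 and 37.3 CPM in CROH and 19.2, 25.4 and 33.6 CPM in the controls. The groups were separate and the log2 change was 0.89 ± 0.17 (adjusted p = 0.0023). FOXA3, a pioneer factor of liver genes, had 17.2, 18.3, 22.2 and 19.4 CPM in CROH and 10.9, 13.5 and 14.9 CPM in the controls, a change of 0.54 ± 0.15 (adjusted p = 0.0434). These were the 2 of 23 tested members called in the list of hepatocyte secreted proteins and regulators, whose median was 0.16. Over all features 0.835% were called higher. Without VROH 2, CRMI 1 and SRMI 3, 6 of the list were called higher, APOB and FOXA1 among them, against 4.32% over all features in that fit. ALB, albumin, and AFP, alpha-fetoprotein, were not called, with log2 differences of 0.20 ± 0.35 (adjusted p = 0.844) and -0.14 ± 0.38 (adjusted p = 0.909). Both changed sign without CROH 3. CYP3A43, a minor cytochrome P450 of the CYP3A family, had 12.9, 9.51, 9.34 and 11.2 CPM in CROH and 3.14, 5.54 and 8.01 CPM in the controls (0.91 ± 0.23, adjusted p = 0.0191).

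In the list of amino acid and urea metabolism, 2 of 19 tested genes were called higher and none lower, with a list median of 0.27. The share called higher over all features was 0.835%. ARG1, arginase, the last enzyme of the urea cycle, had 87.1, 76.2, 73.1 and 70.7 CPM in CROH and 41.4, 49.97 and 62.6 CPM in the controls, a change of 0.60 ± 0.14 (edgeR, adjusted p = 0.0126). GLUL, described with the WNT targets, was the other. The list does not hold every gene of amino acid metabolism: AMDHD1, of histidine breakdown, stands outside it and was called lower (described below). ETNPPL (chr4:108742040-108763054, minus strand), which breaks down phosphoethanolamine, had the largest log2 change of the 58 genes called higher, at low counts. It had 6.00, 4.57, 3.82 and 4.1 CPM in CROH and 1.16, 1.63 and 2.14 CPM in the controls, a change of 1.5 ± 0.29 (adjusted p = 0.0023). GPD1, which makes glycerol 3-phosphate for lipid synthesis, stands in the same list of 15 and went the other way, with 6.56, 7.5, 7.78 and 7.12 CPM in CROH and 10.4, 11.8 and 14.6 CPM in the controls (-0.73 ± 0.20, adjusted p = 0.0358). The median of that list was 0.10.

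Of 15 tested glycolysis genes, 2 were called higher and none lower, with a median of 0.22, against 0.835% called higher over all features. PFKFB3, which makes the strongest activator of phosphofructokinase, had 80.00, 88.9, 148 and 95.3 CPM in CROH and 47.3, 55.7 and 71.6 CPM in the controls (0.84 ± 0.21, adjusted p = 0.0172). HK1, hexokinase, had 11.4, 12.4, 12 and 14.7 CPM in CROH and 4.52, 7.83 and 9.18 CPM in the controls (0.77 ± 0.21, adjusted p = 0.0358). For both genes every CROH library was above every control library.

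Of 14 tested NRF2 targets, 2 were called higher, with a median of 0.21, against 0.835% called higher over all features. AKR1B10, an aldo-keto reductase that is also raised in liver cancer, had 27.4, 32.5, 52.2 and 34.9 CPM in CROH and 16.6, 20.2 and 24.9 CPM in the controls (0.84 ± 0.20, adjusted p = 0.0171). OSGIN1, a growth inhibitor induced by oxidative stress, had 14.1, 18.8, 34.9 and 22.6 CPM in CROH and 9.42, 11.6 and 18.5 CPM in the controls. The groups of OSGIN1 overlapped at control 6 (0.91 ± 0.26, adjusted p = 0.0465). HMOX1, heme oxygenase, a well-known NRF2 target, averaged 27.8 ± 7.3 CPM in CROH (SD, n = 4) and 27.4 ± 2.9 CPM in the controls (SD, n = 8). Its difference of 0.03 ± 0.14 was not called (edgeR, adjusted p = 0.953), and it turned negative without CROH 3, without control 3, with RLE size factors and after thinning. AKR1B1, aldose reductase, which makes the osmolyte sorbitol, had 3.56, 4.75, 2.55 and 4.96 CPM in CROH and 1.27, 1.91 and 2.54 CPM in the controls (1.05 ± 0.30, adjusted p = 0.0421). AMOTL2, an angiomotin family member that binds and restrains YAP, had 11.8, 17.7, 16 and 14.5 CPM in CROH and 7.41, 8.15 and 9.9 CPM in the controls (0.83 ± 0.21, adjusted p = 0.0221).

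MRPS6 (chr21:34073224-34143034, plus strand), a protein of the small mitochondrial ribosomal subunit, had 644, 613, 540.5 and 536 CPM in CROH and 239, 319.7 and 393 CPM in the controls, and rose without overlap by 0.86 ± 0.19 on the log2 scale (adjusted p = 0.00881). Its gene overlaps SLC5A3 (chr21:34073570-34106262, plus strand), the transporter of the osmolyte inositol, and its counts may hold reads of either. MRPS6 was the only 1 of 70 tested mitochondrial ribosomal protein genes called, against 0.835% called higher over all features. The median of that list was -0.12. When VROH 2, CRMI 1 and SRMI 3 were left out, MRPL41 was also called higher and 9 of the 70 members were called lower, against 5.93% lower over all features in that fit. The osmotic stress list counts AKR1B1 and MRPS6 among its 5 tested members, 2 called in all, against 0.835% higher over all features. MRPS6 is thus counted in both lists. The lists were chosen with earlier results of these data known, so this count is no independent support for an osmotic response. Its median was 0.03. EPOP, a partner of the Polycomb repressive complex, had 9.37, 6.03, 8.77 and 7.55 CPM in CROH and 2.95, 4.64 and 5.43 CPM in the controls (0.84 ± 0.20, adjusted p = 0.0166).

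Calls among these genes ended without 1 library for FOXA3 (CROH 1, 2, 3 or 4 or control 1, 2, 3, 4, 5, 6 or 8, adjusted p up to 0.243), CYP3A43 (CROH 1 or 4, adjusted p up to 0.0809), ARG1 (CROH 1, adjusted p 0.0535), GPD1 (CROH 1, 2, 3 or 4 or control 1, 2, 3 or 5, adjusted p up to 0.103), PFKFB3 (CROH 3, adjusted p 0.238), HK1 (CROH 1, 2, 3 or 4 or control 2, 3 or 5, adjusted p up to 0.152), AKR1B10 (CROH 3, adjusted p 0.226), OSGIN1 (CROH 2, 3 or 4 or control 1, 2, 3, 4, 5, 7 or 8, adjusted p up to 0.443), AKR1B1 (CROH 1, 2, 3 or 4 or control 1, 2, 3, 5, 7 or 8, adjusted p up to 0.177), AMOTL2 (CROH 2, 3 or 4, adjusted p up to 0.123) and EPOP (CROH 1 or 3, adjusted p up to 0.0807). NR5A2, ETNPPL and MRPS6 were called in all 12 such fits. Where families hold similar copies, as with CYP3A43, AKR1B1 and AKR1B10, how far the probes told them apart is unknown.

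**Figure D3:**
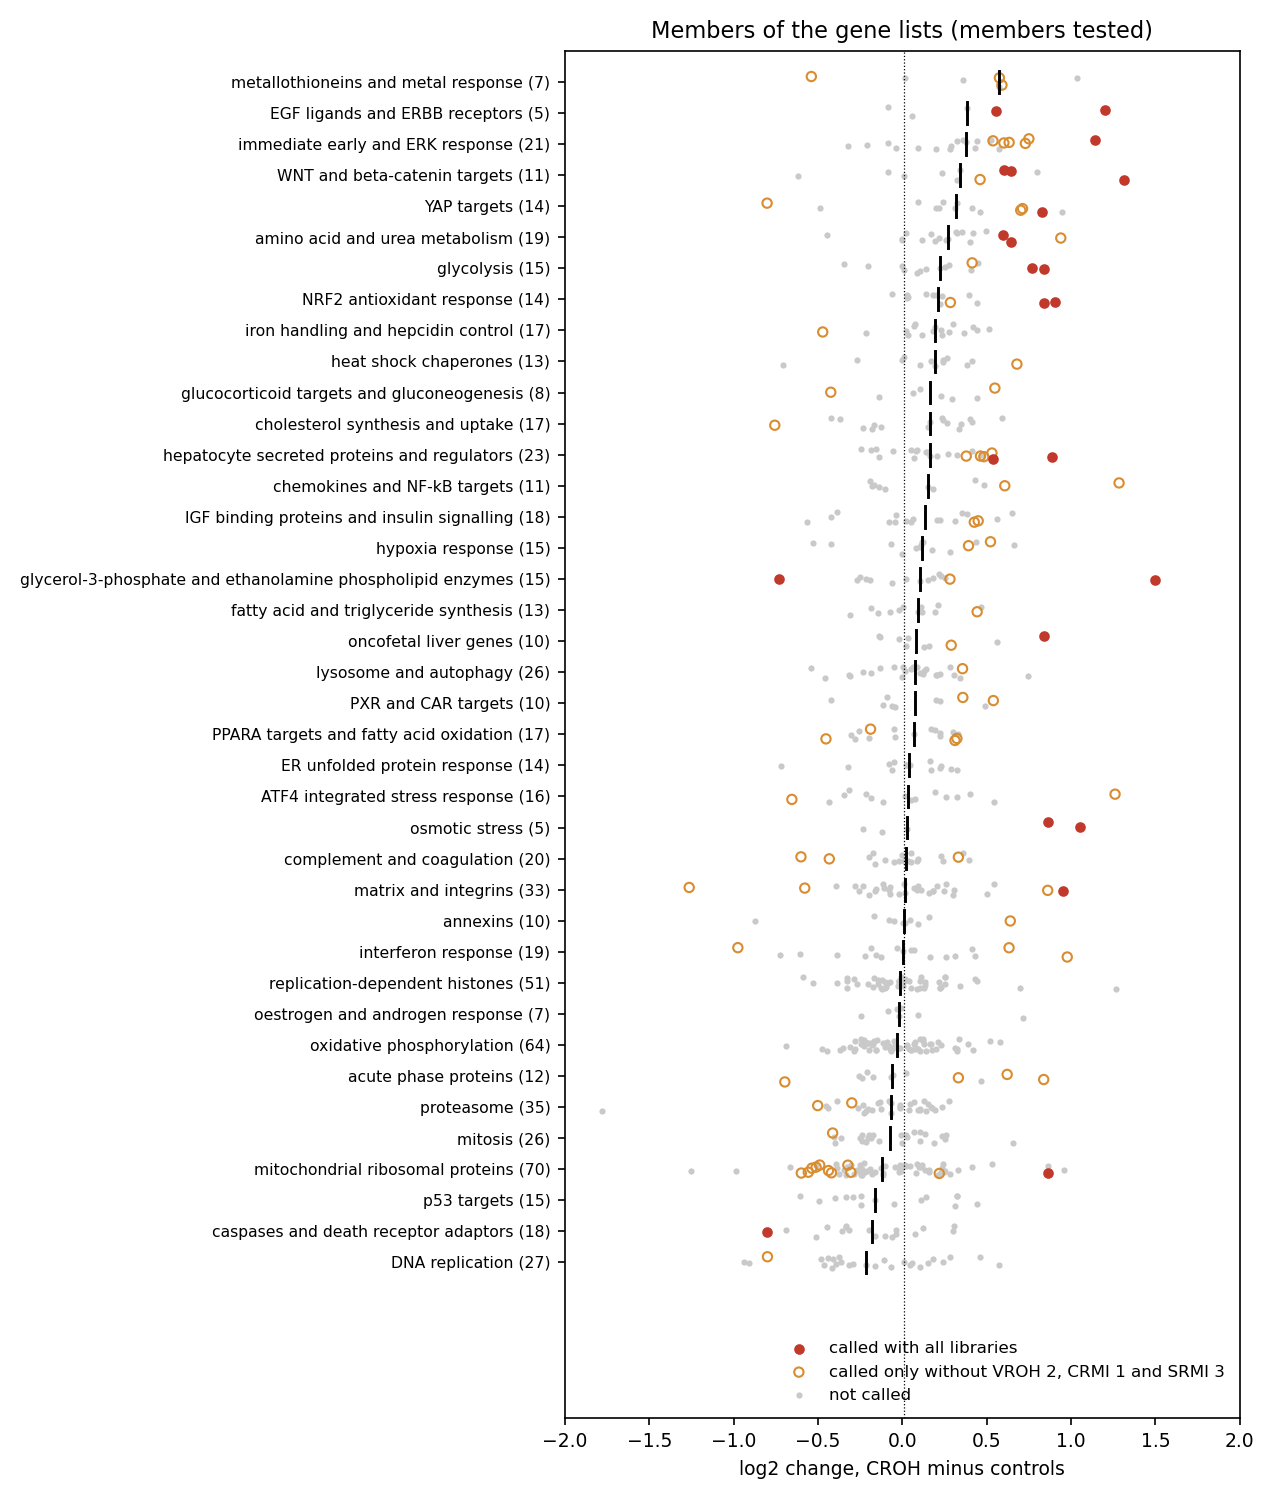
Each row is a gene list with at least 5 tested members, ordered by its median (black bar), and each point a member at its log2 change, CROH minus controls. Filled red points were called with all libraries and open points only without VROH 2, CRMI 1 and SRMI 3. Red points stand on the higher side, except GPD1 and CASP8.

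Of 759 genes tested over all lists, 18 were called higher and 2 lower, against 0.835% higher and 1.31% lower over all features. Most of the 58 genes called higher and of the 91 called lower stand in no list. CASP8 (chr2:201233443-201287711, plus strand), the caspase that starts cell death from death receptors, had 35.8, 30.3, 38.3 and 35.4 CPM in CROH and 42.4, 62.8 and 71.2 CPM as lowest, median and highest in the controls. It fell by 0.80 on the log2 scale (-0.80 ± 0.15, adjusted p = 0.00176), every CROH library lying below every control library. It was the only 1 of 18 tested caspases and death receptor adaptors called, against 1.31% called lower over all features. The median of that list was -0.18. GPD1, described above, was the other list member called lower.

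HSD17B8 (chr6:33204642-33206831, plus strand), a subunit of the reductase of mitochondrial fatty acid synthesis, had 16.1, 11.5, 10.7 and 14 CPM in CROH and 26, 29.9 and 33.5 CPM in the controls. The highest CROH dish was well below the lowest control dish, and the change was -1.18 ± 0.23 (adjusted p = 0.00242). ME2, the malic enzyme of mitochondria, had 11.8, 11.5, 6.65 and 12.7 CPM in CROH and 19.4, 22.3 and 23.7 CPM in the controls (-1.04 ± 0.28, adjusted p = 0.031). AMDHD1, an enzyme of histidine breakdown, had 7.12, 3.47, 4.38 and 4.96 CPM in CROH and 8.56, 9.97 and 14.1 CPM in the controls (-1.09 ± 0.26, adjusted p = 0.0167). ENPP7, a sphingomyelinase known from intestine and bile, had 4.31, 2.74, 2.69 and 4.31 CPM in CROH and 5.21, 6.45 and 8.35 CPM in the controls (-0.98 ± 0.27, adjusted p = 0.0332). For these 3 genes the groups were separate as well.

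POLD3, HIRA and PRPF38A, which act on DNA, chromatin or RNA, were also called lower. POLD3 (chr11:74493851-74669117, plus strand), a subunit of DNA polymerase delta, had 7.68, 4.94, 5.09 and 5.18 CPM in CROH and 9.83, 11.4 and 18.8 CPM in the controls (-1.15 ± 0.25, adjusted p = 0.00648). HIRA, a chaperone that places histones outside replication, had 14.1, 10.4, 12 and 9.49 CPM in CROH and 15.4, 19.1 and 22.7 CPM in the controls (-0.73 ± 0.18, adjusted p = 0.0191). PRPF38A, a spliceosome protein, had 6.18, 8.04, 6.51 and 8.2 CPM in CROH and 10.02, 14.1 and 19.4 CPM in the controls (-1.01 ± 0.27, adjusted p = 0.0321). No CROH library of these 3 genes reached the lowest control library. None of the 27 tested members of the DNA replication list was called (median -0.21), and none of the 26 tested mitosis genes (median -0.07). With VROH 2, CRMI 1 and SRMI 3 left out, 1 member of each list was called lower, POLA2 and CCNB2. In that fit 5.93% of all features were called lower. MKI67, the proliferation marker Ki-67, averaged 73.5 ± 16.4 CPM in CROH (SD, n = 4) and 61.9 ± 8.01 CPM in the controls (SD, n = 8) and was not called (edgeR, adjusted p = 0.517).

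The largest fall without overlap at a mean of at least 5 CPM was that of C17orf58 (chr17:67991101-67996431, minus strand), with 6.74, 5.3, 2.55 and 2.8 CPM in CROH and 11.1, 14 and 15.8 CPM in the controls (-1.68 ± 0.38, adjusted p = 0.00881). PCDHB2, a protocadherin of the beta cluster, had 5.25, 4.2, 2.69 and 5.18 CPM in CROH and 9.37, 11.7 and 14.9 CPM in the controls (-1.48 ± 0.35, adjusted p = 0.0163). DYSF, dysferlin, a membrane repair protein of muscle, had 17.2, 11.7, 5.37 and 11.2 CPM in CROH and 20.1, 26.2 and 31.6 CPM in the controls (-1.17 ± 0.29, adjusted p = 0.0186). CROH 3 was the lowest of the 12 libraries for all 3 genes. B9D1, of the gate at the base of the primary cilium, had 2.44, 2.93, 4.95 and 2.8 CPM in CROH and 5.31, 6.65 and 8.81 CPM in the controls (-1.06 ± 0.21, adjusted p = 0.00242). GNB5, a G protein beta subunit, had 17.4, 11.9, 12.9 and 14.9 CPM in CROH and 19.8, 29.7 and 40.6 CPM in the controls (-1.01 ± 0.27, adjusted p = 0.0341). CHML, an escort protein of Rab proteins, had 12.4, 11, 9.05 and 8.41 CPM in CROH and 17, 19.8 and 23.8 CPM in the controls (-0.99 ± 0.26, adjusted p = 0.0275). These 3 genes also separated the groups in every library.

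Leaving out 1 library ended the calls of C17orf58 (CROH 3 or 4, adjusted p up to 0.0732), PCDHB2 (CROH 2 or 3, adjusted p up to 0.104), DYSF (CROH 2, 3 or 4, adjusted p up to 0.181), AMDHD1 (CROH 2, 3 or 4, adjusted p up to 0.0951), ME2 (CROH 1, 2, 3 or 4, adjusted p up to 0.219), GNB5 (CROH 2, 3 or 4 or control 2, adjusted p up to 0.15), PRPF38A (CROH 1, 2, 3 or 4 or control 2 or 8, adjusted p up to 0.145), CHML (CROH 2, 3 or 4, adjusted p up to 0.137), ENPP7 (CROH 2, 3 or 4 or control 4, 6 or 8, adjusted p up to 0.197) and HIRA (CROH 2, 3 or 4, adjusted p up to 0.0993). CASP8, HSD17B8, POLD3 and B9D1 were called in all 12 such fits. By edgeR's test without VROH 2, CRMI 1 and SRMI 3, all genes of the falls named here were called whichever of the 12 libraries was left out, except DYSF, ME2 and PRPF38A (adjusted p up to 0.0558, 0.0577 and 0.0558). Among the rises named above, EGFR, NR4A1, FFAR2, FOXA3, AKR1B1 and OSGIN1 lost calls in the same fits (adjusted p up to 0.0577, 0.0525, 0.0966, 0.0655, 0.0712 and 0.195).

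Apart from the NRF2 targets and the osmotic stress list, the lists of responses to metals, foreign compounds and cell stress held no called gene with all libraries. Of 7 tested metallothionein and metal response genes none was called, though 6 had a positive difference and the median was 0.57, against 0.01 over all features. MT1G, a metallothionein, had 325, 325, 455 and 281 CPM in CROH and 189, 229 and 303 CPM in the controls (0.57 ± 0.18, adjusted p = 0.0687). MT1M had 29.98, 24.7, 23.3 and 21.4 CPM in CROH and 10.7, 15.7 and 22.9 CPM in the controls (0.59 ± 0.18, adjusted p = 0.0641). For both genes the lowest CROH library was below the highest control library. In the fit without VROH 2, CRMI 1 and SRMI 3, MT1G (adjusted p = 0.00162) and MT1M (adjusted p = 0.00807) were called higher and MT1E (adjusted p = 0.0479) lower. Over all features 4.32% were called higher and 5.93% lower in that fit. MT1E averaged 10.2 ± 0.767 CPM in CROH (SD, n = 4) and 14.9 ± 2.91 CPM in the controls (SD, n = 8). MT2A had a log2 difference of 0.36 ± 0.26 (adjusted p = 0.531), and MT1F and MT1X averaged under 1 CPM in both groups. Metallothioneins are near-identical in sequence, so reads of one may be counted for another.

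CYP1A1, the classic target of the aryl hydrocarbon receptor, had 145, 106, 199 and 128 CPM in CROH and 59.2, 79.4 and 101 CPM as lowest, median and highest in the controls. Every CROH library was above every control library, but the difference of 0.88 ± 0.46 was not called (edgeR, adjusted p = 0.335, and 0.121 without VROH 2, CRMI 1 and SRMI 3). CYP1A1 was called in 1 of 31 alternative fits. Of the 3 tested targets of that receptor none was called with all libraries, and NQO1 was called higher without those 3. The PXR and CAR list had no called gene among 10 tested (median 0.08), and CYP3A7 and EPHX1 were called higher without the 3. Over all features 4.32% were called higher and 5.93% lower in the fit without the 3. None of 16 tested genes of the ATF4 response was called (median 0.03). DDIT3, a transcription factor of stressed cells, had a log2 difference of -0.12 ± 0.14 (adjusted p = 0.744), and ASNS, asparagine synthetase, one of -0.43 ± 0.50 (adjusted p = 0.732). PSAT1, of serine synthesis, averaged 43.3 ± 7.43 CPM in CROH (SD, n = 4) and 68.2 ± 9.95 CPM in the controls (SD, n = 8). It was called lower only without VROH 2, CRMI 1 and SRMI 3 (adjusted p = 0.00604, against 0.201 with them). DDIT4, an inhibitor of mTOR signalling in the same list, was called higher in that fit (1.25 ± 0.41, adjusted p = 0.041). CDKN1A, the p53 target p21, had a log2 difference of -0.29 ± 0.42 (adjusted p = 0.794), and none of 15 tested p53 targets was called (median -0.16).

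No gene was called among 17 tested PPARA targets and fatty acid oxidation genes (median 0.07), 17 of cholesterol synthesis and uptake (0.16), 14 of the unfolded protein response (0.04), 13 heat shock chaperones (0.19), 15 hypoxia genes (0.11), 19 interferon response genes (0.00) or 64 of oxidative phosphorylation (-0.03). Without VROH 2, CRMI 1 and SRMI 3, CREB3L3 and PLIN2 were called higher and ACADM and ECI1 lower among the PPARA targets and fatty acid oxidation genes. Over all features 4.32% were called higher and 5.93% lower in that fit. In that fit IDI1 of cholesterol synthesis was called lower, the chaperone gene DNAJB1 higher, and the hypoxia genes CA9 and NDRG1 higher. Of the interferon response genes HLA-C and IFITM1 were then called higher and MX1 lower, while no gene of the unfolded protein response or of oxidative phosphorylation was called. GBP1, an interferon-induced gene outside the interferon list, was called lower with all libraries (-0.92 ± 0.21, edgeR, adjusted p = 0.00881). It is named here after its values were seen. PLIN2, the coat protein of lipid droplets, had 1136, 1149.8, 1292 and 1058 CPM in CROH and 802, 926 and 1034 CPM in the controls. Its groups did not overlap and its difference was 0.31 ± 0.22 (adjusted p = 0.504), and without the 3 libraries its adjusted p was 0.0204. CPT1A, the gate enzyme of fatty acid oxidation, had a log2 difference of 0.19 ± 0.23 (adjusted p = 0.751). HAMP, the iron hormone hepcidin, had a log2 difference of 0.20 ± 0.22 (adjusted p = 0.728). PLPPR1, a membrane protein of the phospholipid phosphatase family, averaged 37.7 ± 2.53 CPM in CROH (SD, n = 4) and 37.5 ± 3.53 CPM in the controls (SD, n = 8) and was not called (edgeR, adjusted p = 0.99).

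CROH was next set against the mean of the other 15 sites, a contrast that holds no control mean, although the fit shares its spread with the control libraries. By edgeR's test 373 features were called, which is 5.37% of those tested, with 211 higher (3.04%) and 162 lower (2.33%). Of the 149 genes called against the controls, 132 were called here in the same direction, 50 higher and 82 lower. Both counts share the CROH libraries. With RLE size factors the split was 183 higher and 242 lower, and by DESeq2 203 higher and 332 lower, where the median log2 difference over all features was -0.14 in place of 0.02. The count fell to 135 without CROH 2, 81 without CROH 3 and 99 without CROH 4, and it was 301 without CROH 1 and 361 to 368 without 1 control library. Without VROH 2, CRMI 1 and SRMI 3 it was 1442 (20.9% of 6916), 743 higher (10.7%) and 699 lower (10.1%), and 372 of the 373 remained.

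The YAP targets had the most called members here. Of 14 tested, 9 were called higher in CROH than at the other sites and none lower, against 3.04% higher over all features. The list's median was 0.58 against 0.02 over all features. The 9 were AJUBA, AMOTL2, ANKRD1, ARHGEF17, CCN1, CCN2, GADD45A, LATS2 and PTPN14. Against the controls only 1 of the 14, AMOTL2, was called higher and none lower, where 0.835% of all features were called higher. Without VROH 2, CRMI 1 and SRMI 3, 3 of 13 were called higher than the controls and 1 lower. The shares over all features there were 4.32% and 5.93%. ANKRD1, a nuclear ankyrin repeat protein and a standard readout of YAP, had 609, 712, 713 and 702 CPM in CROH. The means of the other 15 sites ran between 149 CPM at SRMI and 751 CPM at FRWI, with a median of 263 CPM. CROH ranked 5 among the 16 sites, and its difference from the mean of the others was 1.08 ± 0.18 (adjusted p = 0.000200). CCN2, a secreted matricellular protein and also a YAP target, had 377, 403, 541 and 400.1 CPM in CROH, and the other sites' means ran between 120.5 CPM at CRMI and 762 CPM at LRMN. Its difference was 0.75 ± 0.19 (adjusted p = 0.0109). Against the controls neither was called in the main fit, at 0.46 ± 0.23 (adjusted p = 0.32) and 0.41 ± 0.24 (adjusted p = 0.401). Of 31 alternative fits of that comparison, ANKRD1 was called in 2 and CCN2 in 1. The count of 9 YAP targets was 7 without CROH 1, 4 without CROH 2, 2 without CROH 3 and 4 without CROH 4, and again 9 without VROH 2, CRMI 1 and SRMI 3, where 1 member was called lower. In that last fit 10.7% of all features were called higher and 10.1% lower. LYZ, the immune marker noted above, was called as well, at 2606 CPM in CROH, a median of 1303 CPM over the other sites' means and 1651 CPM in the controls.

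Of the immediate early and ERK response genes, 6 of 21 were called higher than at the other sites, against 3.04% over all features. They were the same 6 that were called against the controls without VROH 2, CRMI 1 and SRMI 3. JUN averaged 8.02 CPM in CROH, with a median of 4.66 CPM over the other sites' means, and JUNB 64.3 CPM in CROH with a median of 30.6 CPM. The count of 6 was 5 without CROH 1, 4 without CROH 2, 2 without CROH 3 and 3 without CROH 4, and 8 without VROH 2, CRMI 1 and SRMI 3, where 1 was called lower. The shares over all features in that last fit were 10.7% higher and 10.1% lower. HAMP, not called against the controls, was higher than the mean of the other sites (0.70 ± 0.18, adjusted p = 0.0121), while the site means ran as low as 1.32 CPM at LRMN. Leaving out 1 library ended the calls of HAMP (CROH 3 or 4, adjusted p up to 0.227) and CCN2 (CROH 3, adjusted p 0.153). Glycolysis genes numbered 3 of 15 called (HK1, PFKFB3 and PGAM1) and WNT targets 4 of 11 (APCDD1, AXIN2, GLUL and NOTUM), none lower, against 3.04% higher over all features. With 1 CROH library left out, the glycolysis count was 3 without CROH 1, 2 without CROH 2 and 1 without CROH 3 or 4, and the WNT count was 3 without CROH 1 and 2 without CROH 2, 3 or 4. None of the 7 metallothionein and metal response genes was called, with a median of -0.23. MT1G had a difference of -0.25 ± 0.16 (adjusted p = 0.367) and MT1M of -0.42 ± 0.16 (adjusted p = 0.107), with a sign opposite to that against the controls and no call in either comparison with all libraries. Without VROH 2, CRMI 1 and SRMI 3, MT1M was called in both, lower than the mean of the other sites (-0.46, adjusted p = 0.00899) and higher than the controls.

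**Figure D4:**
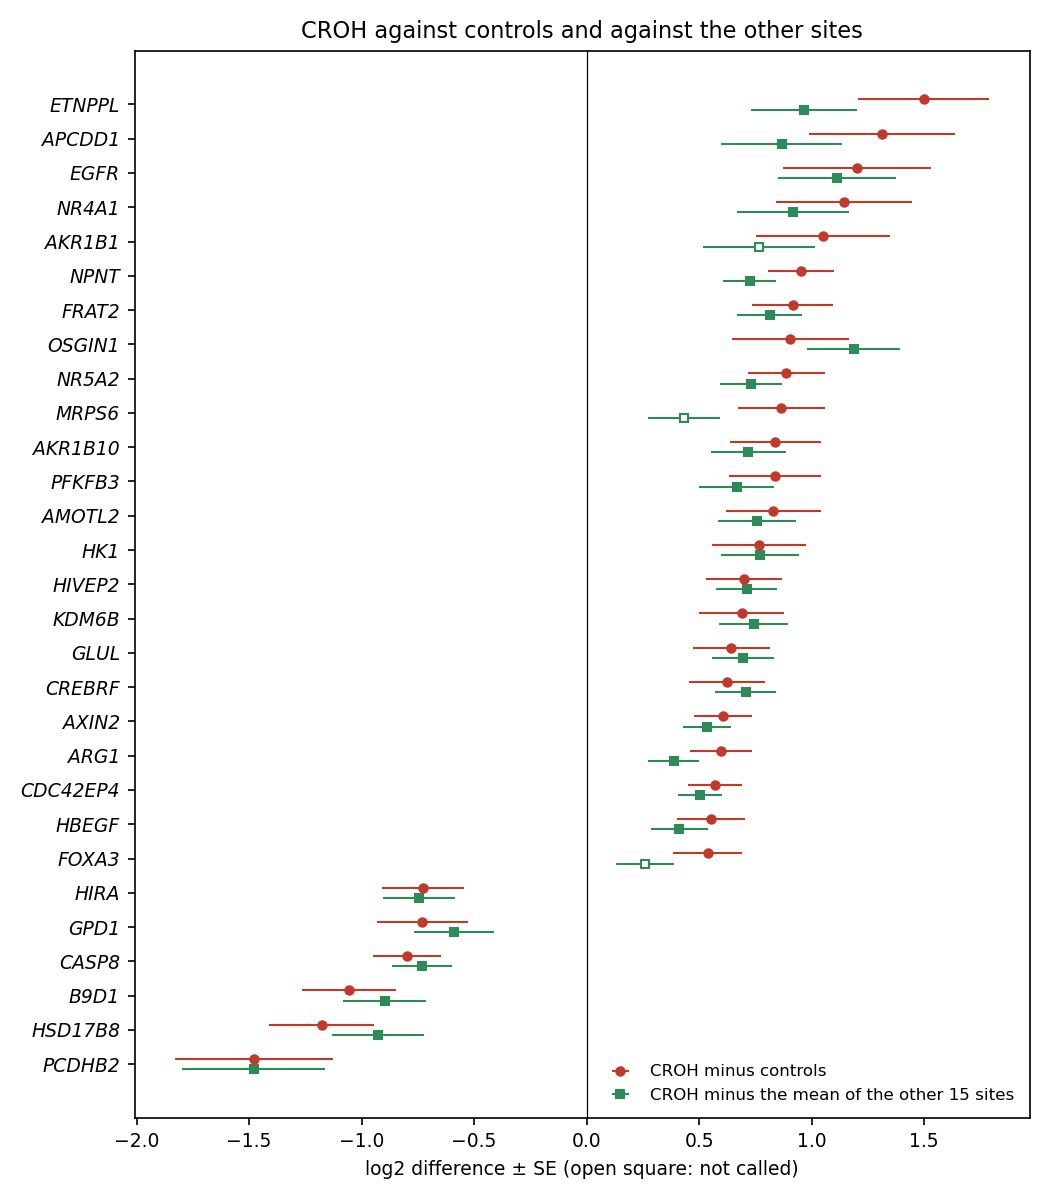
Rows are named genes, with the log2 difference and its SE of CROH minus controls (red circles) and of CROH minus the mean of the other 15 sites (green squares, open where not called). AKR1B1, MRPS6 and FOXA3 have open squares, and the other genes shown were called in both comparisons.

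Some genes had their highest or lowest mean in CROH. Of the 58 genes called higher against the controls, 18 had the highest of the 17 group means in CROH, and of the 91 called lower, 22 had the lowest there, over all libraries. With VROH 2, CRMI 1 and SRMI 3 left out of the means, these counts were 20 and 59. A gene chosen for its difference from the controls is more likely to have such an extreme mean in CROH. The share over all features is not given here, so these counts do not show a trait particular to CROH. The site means and ranks given for single genes leave out those 3 libraries. CDC42EP4, an effector of the small GTPase CDC42, had 40.7, 42, 38.6 and 41 CPM in CROH, and the other sites' means ran between 22.6 CPM at MAWI and 38.5 CPM at RRMI. Its difference from their mean was 0.51 ± 0.10 (adjusted p = 0.00118), and from the controls 0.57 ± 0.12 (adjusted p = 0.00423). CREBRF, a regulator of the CREB3 stress factor family, had 117, 129.6, 103 and 144 CPM in CROH, and the other sites' means ran between 48 CPM at CRMI and 105 CPM at LRMN (0.71 ± 0.14, adjusted p = 0.00116). HIVEP2, a zinc finger transcription factor, had 55.8, 56.5, 72.4 and 54.1 CPM in CROH, with other sites' means between 25.4 CPM at MAWI and 58.1 CPM at LRMN (0.71 ± 0.14, adjusted p = 0.00116). KDM6B, a histone demethylase that removes a repressive mark, had 30.7, 33.5, 43.3 and 35.4 CPM in CROH, with other sites' means between 13.5 CPM at CRMI and 32.3 CPM at LRMN (0.74 ± 0.15, adjusted p = 0.00276). For all 4 genes CROH ranked first, but the mean of the next site was within the larger of their 2 SDs.

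Against the controls, CREBRF had 0.63 ± 0.17 (adjusted p = 0.0328), HIVEP2 0.70 ± 0.17 (adjusted p = 0.0171) and KDM6B 0.69 ± 0.19 (adjusted p = 0.0358) as log2 change by edgeR. The controls' lowest, median and highest values were 22.6, 26.5 and 33.1 CPM for CDC42EP4, 67, 80.1 and 96.8 CPM for CREBRF, 30.2, 37.2 and 47.8 CPM for HIVEP2 and 18.8, 22 and 26 CPM for KDM6B, all below the CROH dishes. Those calls ended without 1 library for CREBRF (CROH 1, 2 or 4 or control 3, 5 or 8, adjusted p up to 0.161), HIVEP2 (CROH 3, adjusted p 0.137) and KDM6B (CROH 2, 3 or 4 or control 2, 3, 4 or 6, adjusted p up to 0.226). At the low end stood CASP8, HSD17B8, B9D1, HIRA and PCDHB2, whose CROH means were below those of all other sites and of the controls. CASP8 differed from the mean of the other sites by -0.73 ± 0.13 (adjusted p = 0.000672), HSD17B8 by -0.93 ± 0.21 (0.00478) and PCDHB2 by -1.48 ± 0.32 (0.00379). Against the other sites, calls ended without 1 library for HSD17B8 (CROH 3, adjusted p 0.0528), PCDHB2 (CROH 3, adjusted p 0.0524) and KDM6B (CROH 3, adjusted p 0.0548).

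The genes called between CROH and the controls ordered the 16 sites in a repeated way. For each gene the 16 site means were ranked, leaving the control mean out. LRMN was among the 8 highest sites for 55 of the 58 genes called higher in CROH, VROH and RRMI for 57 each, JRMI for 55, FRWI for 53, GRNY for 51 and BRWI for 49. This split of the sites was noticed after their values were seen, and the place of CROH itself follows from how the genes were chosen. The 8 remaining sites, CRMI, GRMI, IHIN, MAWI, MIWI, MROH, ORNY and SRMI, were among the 8 highest for 1 to 7 of the 58. Of the 91 genes called lower, LRMN was among the 8 lowest sites for 91, BRWI for 82 and the other 5 of the first set for 88 to 90. The 8 remaining sites were there for 0 to 5. Over all 6947 features, each site was among the 8 highest for 47.9% to 51.3%.

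CASP8 shows this order. Its mean was 35 ± 3.34 CPM in CROH (SD, n = 4), and 36.2 to 47.6 CPM at VROH, JRMI, LRMN, FRWI, GRNY, RRMI and BRWI. At the other 8 sites it was 62.4 to 88.3 CPM, and 60.9 ± 9.18 CPM in the controls (SD, n = 8). AXIN2 averaged 98.6 ± 14.7 CPM in CROH (SD, n = 4), 69.3 to 94.1 CPM at the same 7 sites, 53 to 62.9 CPM at the other 8 and 64.8 ± 5.48 CPM in the controls (SD, n = 8). Within each set, no step between neighbouring sites was larger than the larger of their 2 SDs. The step between the sets, BRWI to MROH, was larger for CASP8, while that between BRWI and ORNY was not for AXIN2. Total counts did not separate the sets: they ran between 2.91 and 9.89 M in the first 7 sites and between 3.18 and 9.88 M in the other 8, without the 3 libraries that stood apart. CRMI and GRMI were the shallowest, with at most 3.84 and 4.76 M. The labels give no date or plate for any dish or library, so such a grouping and the water cannot be told apart.

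**Figure D5:**
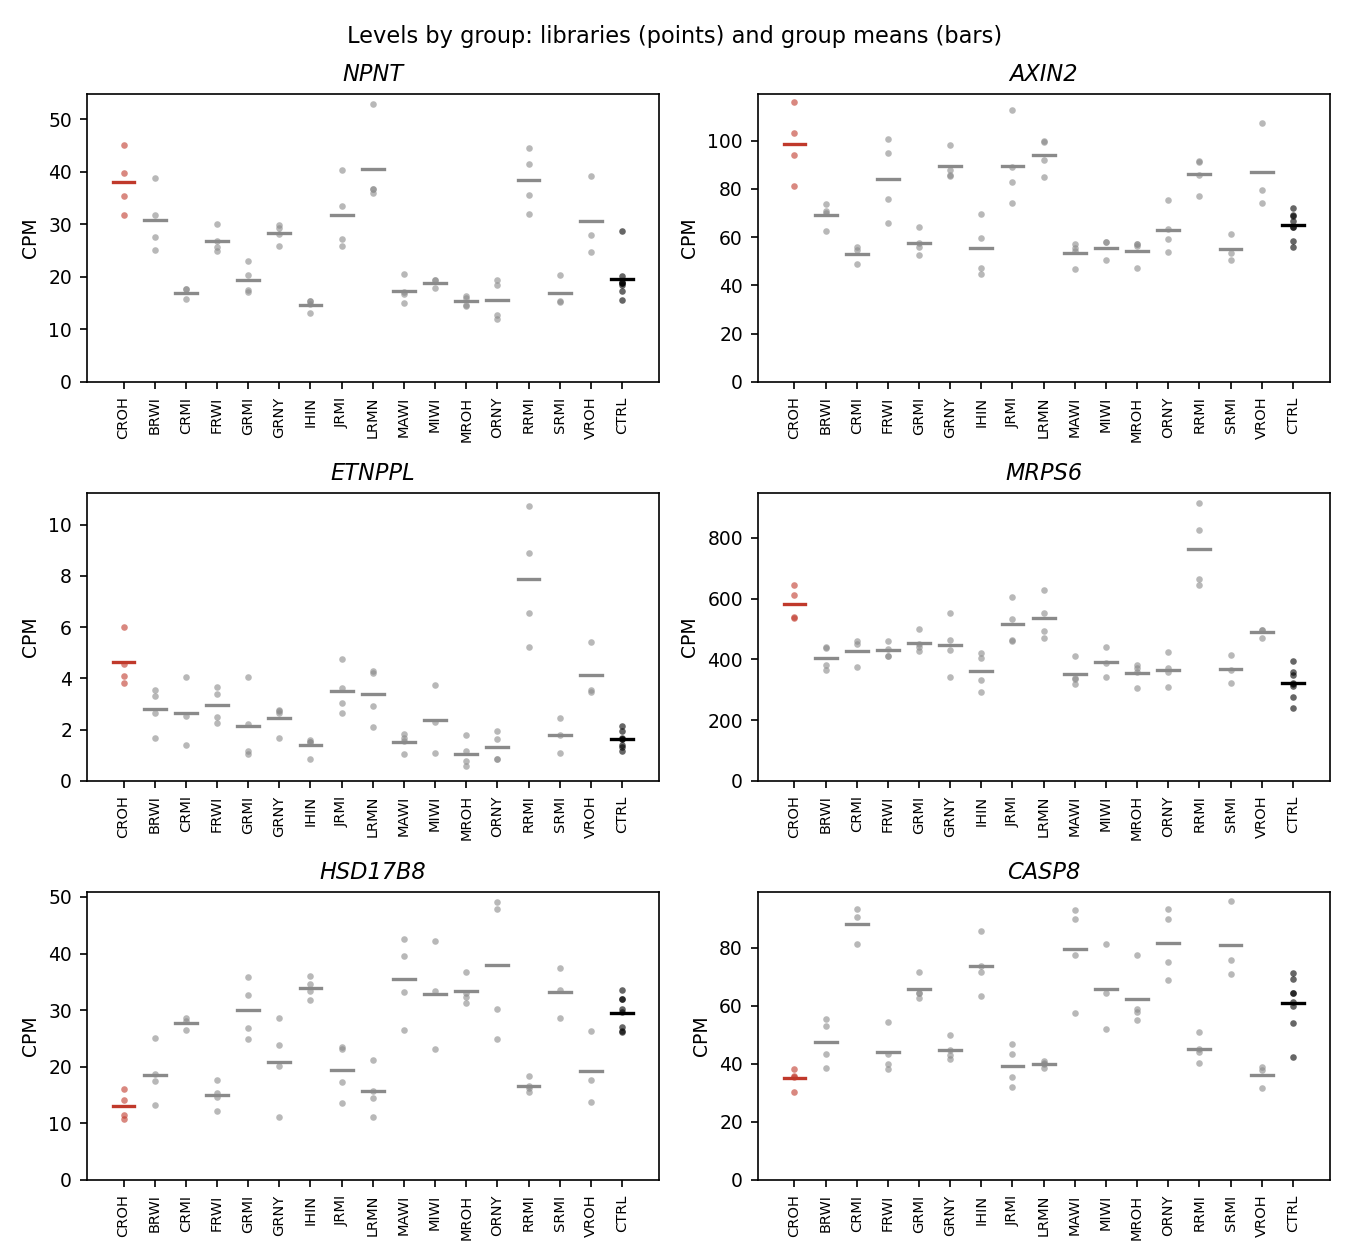
CPM of 6 genes by library (points) and group mean (bars) for CROH (red), the other 15 sites (grey) and the controls (black), with VROH 2, CRMI 1 and SRMI 3 left out. CROH has the highest mean of the groups for AXIN2 and the lowest for CASP8 and HSD17B8, and the control means of AXIN2 and CASP8 lie between the 2 sets of sites.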

How the data were processed

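RNA of CROH, other-site and control dishes was assayed with TempO-Seq. The authors deposited a table of estimated counts per gene, under a name that calls them normalized. Salmon and GRCh38 are named per the submitters' processing notes, without a Salmon version, and probe positions and any normalization are likewise not given in the sources used here. In each CROH and control library 1 read was worth 0.998 to 1.00, and 91.9% to 93.8% of values under 20 lay within 0.02 of whole multiples of it, so the values were rounded and used as counts.

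edgeR 4.0.16 (R 4.3.3, limma 3.58.1) fitted 17 group means over 71 libraries (quasi-likelihood test) after TMM scaling and filterByExpr (minimum count 10). Contrasts were CROH minus controls and CROH minus the unweighted mean of the other 15 sites. Benjamini-Hochberg adjusted p under 0.05 is called, ± after a log2 value is its standard error, and ± after CPM is the SD. The procedure was tested on simulated data. Depth per group stands in the results and limits precision for genes at low CPM. Alternatives were DESeq2 1.42.0, RLE size factors, no filter, CROH and controls alone, omission of the 3 libraries that stood apart, thinning, a replicate block and omission of single libraries. Omission of a single library together with those 3 was chosen after seeing the data.

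Named genes were the 12 largest rises and falls without overlap at a mean of at least 5 CPM, up to 4 called members per list, the 6 smallest p values in each direction against the other sites among genes with the highest or lowest mean in CROH, and a fixed set. Others are named where a list count is given, and some gene results that are withheld are not reported here. Members and lists were chosen with earlier results of these data known. Gene positions are on GRCh38 and promoters from RefSeq (GRCh38.p14).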

Additional observations from a re-analysis of the deposited data

Results flagged for a closer look

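Of 134 groups of 4 or 8 libraries looked at for the named genes, 10 held a library far from the others, and chance flags about 1 in 20 groups. In CROH, ANKRD1 was at 609 CPM in CROH 1 against 702 to 713 CPM in the other CROH libraries. CCN2 was at 541 CPM in CROH 3 against 377 to 403 CPM, HIVEP2 at 72.4 CPM in CROH 3 against 54.1 to 56.5 CPM, and POLD3 at 7.68 CPM in CROH 1 against 4.94 to 5.18 CPM. In the controls, NPNT was at 28.7 CPM in control 1 against 15.6 to 20.1 CPM in the others, and NRN1 at 8.57 CPM in control 1 against 4.51 to 6.22 CPM. FFAR2 was at 2.32 CPM in control 3 against 3.82 to 5.07 CPM, and HBEGF at 23.6 CPM in control 5 against 34.4 to 42.2 CPM. OSGIN1 was at 18.5 CPM in control 6 against 9.42 to 12.8 CPM, and CCN2 at 498 CPM in control 7 against 265 to 359 CPM. HIVEP2 lost its call without CROH 3 (edgeR, adjusted p = 0.137), while POLD3, NPNT and NRN1 were called without any 1 library.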

How the results depend on the processing

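For CROH minus controls, the count of 149 called genes was 237 by DESeq2 (141 of the 149 among them), 205 with RLE size factors, 73 without the filter on low counts (72 of the 149) and 997 of 6704 with CROH and controls fitted alone (146 of the 149). It was 709 without VROH 2, CRMI 1 and SRMI 3 and 117 after thinning. It was 42 to 150 without 1 library and 303 to 806 without 1 library and those 3. For CROH minus the other sites, the count of 373 was 535 by DESeq2, 425 with RLE size factors, 260 without the filter, 1442 without the 3 libraries and 345 after thinning. It was 81 to 368 without 1 library and 560 to 1473 without 1 library and the 3. Replicate numbers did not pair the dishes: the correlations of deviations were -0.352, 0.038, -0.219 and 0.107 for the 4 shared numbers. With the replicate block 15 features were called against the controls and 148 against the other sites. That fit left out all GRMI and MIWI libraries, whose column numbers differ from those of the labels. Numbers 5 to 8 occur only among the controls, so controls 5 to 8 added nothing to the control mean in it. How much of the lower counts came from the block itself was not tested. No called named gene changed sign. Of 4082 values of named genes under alternatives, 3576 kept direction and side of the threshold, 326 lost a call, 133 gained one and 47 changed sign, all of genes not called, and the cause was not tested. PLPPR1 against the controls was -0.0179 by DESeq2, -0.0191 with RLE size factors, -0.0015 without the filter, -0.0049 with CROH and controls alone, -0.0047 without the 3 libraries and -0.0263 with the replicate block. HMOX1 was -0.0053 with RLE size factors and -0.0233 after thinning against the controls, and -0.0148 after thinning against the other sites. DDIT3 against the other sites was -0.0156 by DESeq2, -0.0151 with RLE size factors and -0.00013 without the 3 libraries. Without 1 library, with or without those 3, log2 changes against the controls were -0.0362 to 0.0516 for PLPPR1, -0.175 to 0.118 for HMOX1, -0.305 to 0.0652 for AFP and -0.0294 to 0.31 for ALB. Against the other sites they were -0.0411 to 0.0784 for DDIT3, -0.151 to 0.162 for HMOX1, -0.135 to 0.0889 for CDKN1A, -0.598 to 0.0891 for ASNS, -0.602 to 0.0962 for MT1F, -0.41 to 0.0487 for MT1X, -0.386 to 0.0362 for AFP and -0.151 to 0.186 for ALB. Depth limits genes at low CPM, and 27 of the 149 were below 5 CPM in their higher group.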

Other observations

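The genes in this paragraph stand in no list above and were chosen after their values were seen, because they were called between CROH and the controls in every alternative and whichever library was left out. AKAP12, a scaffold of protein kinase A, averaged 41.9 ± 3.84 CPM in CROH and 75.2 ± 12.2 CPM in the controls (SD, n = 4 and 8), with a log2 change of -0.84 ± 0.15 (edgeR, adjusted p = 0.0013). DBNL, an actin-binding adaptor, averaged 144 ± 6.91 CPM in CROH and 245 ± 21.6 CPM in the controls (-0.77 ± 0.17, adjusted p = 0.00587). NEDD4, a ubiquitin ligase, averaged 14.1 ± 0.92 CPM in CROH and 23.8 ± 0.956 CPM in the controls (-0.76 ± 0.15, adjusted p = 0.00242). ALKBH8, which modifies the wobble base of transfer RNAs, averaged 8.27 ± 0.721 CPM in CROH and 15.9 ± 1.56 CPM in the controls (-0.94 ± 0.18, adjusted p = 0.00157). CSTF2, of messenger RNA cleavage before polyadenylation, averaged 29 ± 2.37 CPM in CROH and 45.4 ± 3.74 CPM in the controls (-0.65 ± 0.13, adjusted p = 0.00423). PREPL, a peptidase-like protein of vesicle traffic, averaged 37.2 ± 2.28 CPM in CROH and 61.6 ± 6.3 CPM in the controls (-0.73 ± 0.14, adjusted p = 0.00242). MOSPD1, a membrane protein with a sperm protein domain, went the other way, with 34.5 ± 2.22 CPM in CROH and 21.7 ± 2.37 CPM in the controls (0.67 ± 0.12, adjusted p = 0.00125). ANP32C, a near copy of ANP32A whose reads may be shared with it, had a change of -0.76 ± 0.16 (adjusted p = 0.00423). With CASP8, HSD17B8, HS3ST3A1, NPNT and NRN1 these are the 13 genes called in all 12 fits without 1 library and in all 7 other alternatives, the replicate block among them.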
